A study of Mus musculus with 6 samples.

Results

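The genes described are 9 surface molecules by which antigen-presenting and tissue cells stimulate or restrain T cells. They are the ligands Pdcd1lg2, Cd274, Cd80, Cd86, Icosl, Cd276, Tnfsf4 and Tnfsf9, and the receptor Cd40. They were chosen by name. All 16 probe sets whose platform annotation gave one of these symbols were used, out of 45037 probe sets tested, and the 9 genes stand among 18193 named genes. Where a gene had several probe sets, the brightest on average stands for it.

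RNA came from whole lungs of adult BALB/c mice and was hybridised to 6 Affymetrix mouse 430 2.0 arrays, 2 for each of 3 genotypes. The first genotype, IL4R KO + SMP8-IL4R, lacked the IL-4 receptor (IL4R -/-) and carried 1 copy (+/-) of a transgene that expresses this receptor from the SMP8 promoter, which the series' design text calls smooth muscle-specific. The second, IL4R KO, was IL4R -/- without the transgene, and the third was wild type (WT). All mice, WT included, received 2 to 3 µg of IL-13 into the trachea once a day for 7 days, and lungs were taken 24 h after the last dose, so every difference here is between genotypes under IL-13 and no unexposed lung was used. Each array held a pool of RNA from 4 mice, and a p-value below measures the spread between such pools.

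T cells act on antigen only when a second set of signals comes with it. The B7 family ligands CD80 and CD86 give that signal through CD28 and withdraw it through CTLA-4, ICOSL signals through ICOS, and PD-L1 (Cd274) and PD-L2 (Pdcd1lg2) inhibit through PD-1. The TNF family ligands OX40L (Tnfsf4) and 4-1BBL (Tnfsf9) sustain T cell responses, and CD40 on the antigen-presenting cell receives CD40 ligand from the T cell. PD-L2 is known as a gene of macrophages and dendritic cells that IL-4 and IL-13 induce through STAT6, whereas PD-L1 is known as a broadly expressed target of interferon gamma.

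Pdcd1lg2 was the single gene of the 9 called between genotypes, at an adjusted p under 0.05. Its signal was about 4-fold lower in both IL4R-deficient genotypes, with or without the smooth muscle transgene, than in WT lungs. Its neighbour on chromosome 19, Cd274, did not differ beyond the spread between pools. Cd40 was lower in both deficient genotypes at all 3 of its probe sets but did not pass the test. The other 6 genes stayed within 0.30 log2 units between any genotypes, by the group means of their highest probe sets.

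The promoters of Pdcd1lg2 and Cd274 are shown because these adjacent checkpoint ligand genes gave different patterns. Each runs 5′ to 3′ from 250 bases before to 50 bases after the gene's start in RefSeq (build GRCm38.p6), at chr19:29410669-29410968 on the plus strand for Pdcd1lg2 and chr19:29367188-29367487 on the plus strand for Cd274. Capitals mark a match to TTCNNNNGAA, the spacing of the STAT element that STAT6 is known to prefer.
Pdcd1lg2: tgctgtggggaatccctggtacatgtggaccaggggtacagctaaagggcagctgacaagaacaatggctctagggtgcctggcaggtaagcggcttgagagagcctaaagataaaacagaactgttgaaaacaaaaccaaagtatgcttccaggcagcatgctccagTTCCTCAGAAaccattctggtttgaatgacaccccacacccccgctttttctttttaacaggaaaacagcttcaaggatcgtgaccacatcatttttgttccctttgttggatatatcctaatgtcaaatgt
Cd274: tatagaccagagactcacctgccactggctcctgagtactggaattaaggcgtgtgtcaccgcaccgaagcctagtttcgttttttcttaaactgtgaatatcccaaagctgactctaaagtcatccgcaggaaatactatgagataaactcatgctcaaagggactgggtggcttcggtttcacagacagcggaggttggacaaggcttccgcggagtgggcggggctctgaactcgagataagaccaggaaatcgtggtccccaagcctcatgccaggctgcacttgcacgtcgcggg
The Pdcd1lg2 window held 1 such match, TTCCTCAGAA, at bases 169 to 178 of the window, with its first base 82 bases before the start. The table of promoters held 5 of the 9 genes, the others being Cd80, Icosl and Cd276, and Cd86, Cd40, Tnfsf4 and Tnfsf9 were not in it. Of these 5, Pdcd1lg2 alone held TTCNNNNGAA, searched on both strands. None of the 5 held the interferon gamma type spacing TTCNNNGAA or the interferon element core GAAANNGAAA. Among all 32851 promoters of the table, 6.95% held TTCNNNNGAA, 8.30% held TTCNNNGAA and 3.44% held GAAANNGAAA. A match describes letters in the window and was not tested for binding.

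Values are the authors' RMA values on the log2 scale, on which 1 unit is a 2-fold difference. As a guide to brightness, the quartiles of all values were 5.30 (lower), 7.10 (median) and 8.98 (upper). Pools of 1 genotype differed by an SD over probe sets of 0.17 in IL4R KO + SMP8-IL4R lungs, 0.32 in IL4R KO and 0.22 in WT. Transcripts of hepatocytes, a liver cell type, stood apart in IL4R KO pool 1 and WT pool 2, with means over 7 genes of 9.56 and 9.17, against 5.81 to 6.13 in the other 4 arrays. The mean of 3 Y-linked genes was 3.72 in IL4R KO pool 2 and 7.50 to 8.31 in the other 5 arrays. Il4ra, the targeted gene, read 9.98 and 9.84 in IL4R KO + SMP8-IL4R lungs, 9.35 and 9.55 in IL4R KO lungs and 9.64 and 9.81 in WT lungs, and was not called in any comparison. Whether its probe set lies in the deleted part was not analysed here, so this reading does not check the labels.

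Pdcd1lg2 read 5.77 and 5.74 in IL4R KO + SMP8-IL4R lungs, 5.71 and 5.83 in IL4R KO lungs, and 7.66 and 7.99 in WT lungs. Both WT arrays lay above the median of all values, and the 4 deficient arrays lay between the lower quartile and the median. The 2 deficient genotypes overlapped each other, and neither overlapped WT. The means were 5.76 ± 0.02 in IL4R KO + SMP8-IL4R lungs, 5.77 ± 0.09 in IL4R KO and 7.83 ± 0.23 in WT (SD, n = 2 pools each). IL4R KO minus WT was -2.05 (SE 0.12, 95% interval -2.34 to -1.77, limma adjusted p = 0.000882), a 4.15-fold lower signal. IL4R KO + SMP8-IL4R minus WT was -2.07 (SE 0.12, 95% interval -2.35 to -1.79, limma adjusted p = 0.000862), a 4.20-fold lower signal. These comparisons share the WT arrays, so they are not independent of each other. With the transgene against without it, the difference was -0.01 (95% interval -0.30 to 0.27, adjusted p = 0.973). That interval leaves room for a rise of up to 0.27 units with the transgene, a small part of the WT difference. It holds for RMA values, which are drawn toward a floor when dim. At the level of the 4 deficient arrays, a rise with the transgene and the gap to WT may therefore be understated. Both falls against WT kept their call in 16 of 16 other settings, including without each pool in turn. These settings are not all separate checks. Leaving out a pool of the genotype not compared gives the same fit as using only the 4 arrays compared. Settings that leave out dim probe sets keep Pdcd1lg2 only through its WT arrays. Without both arrays that held liver transcripts they were -1.83 in IL4R KO and -1.90 in IL4R KO + SMP8-IL4R.

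**Figure D1:**
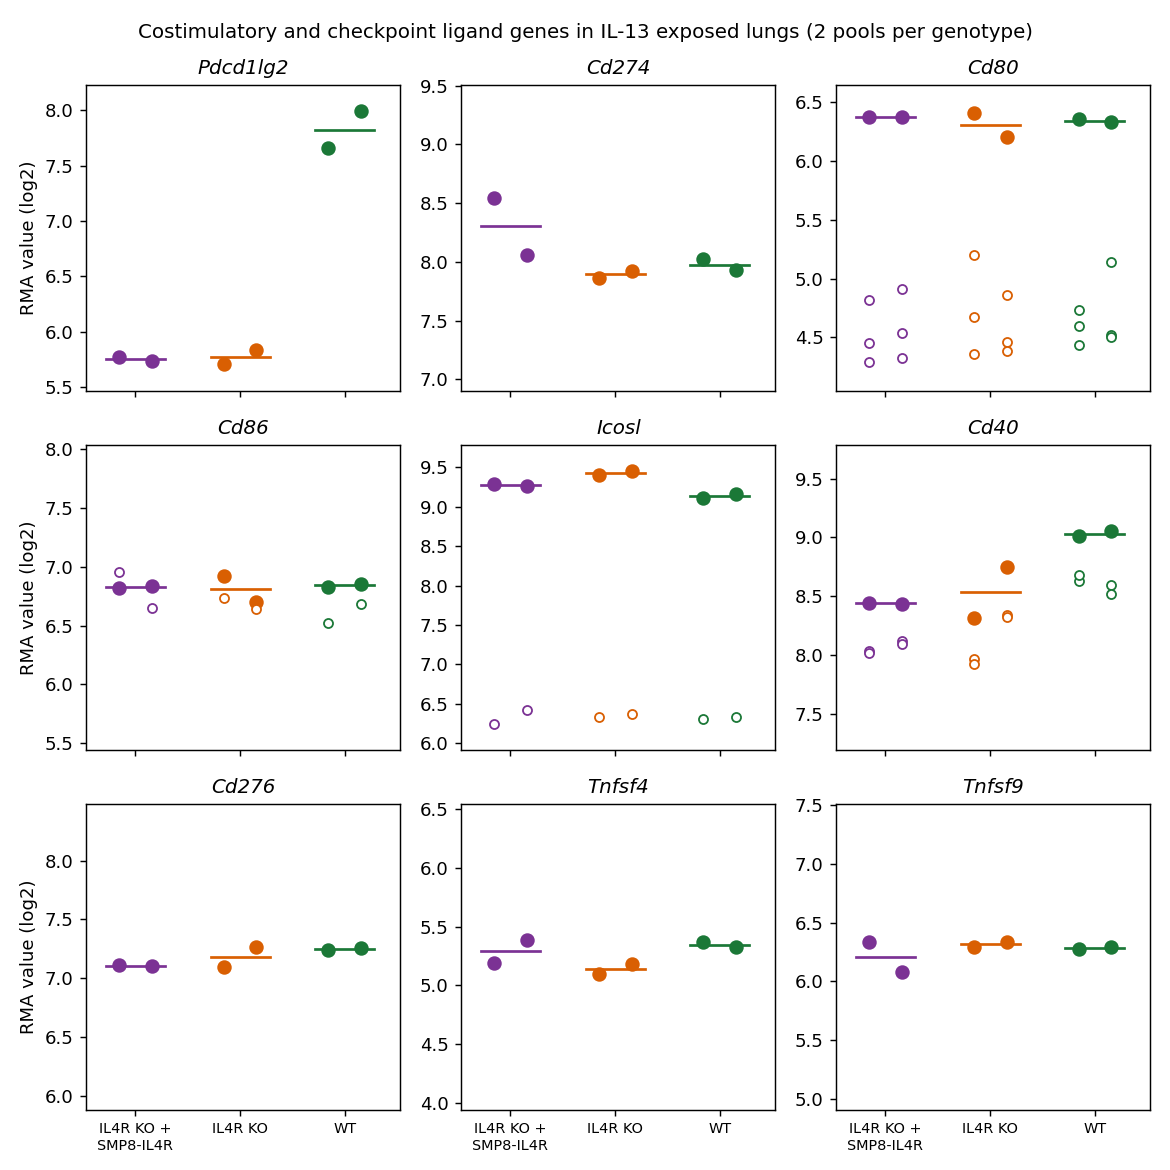
RMA value (log2, vertical axis) of each of the 9 genes in the 6 arrays, by genotype. Filled points are the probe set with the highest mean, lines are its group means, open points are the gene's other probe sets, and each point is 1 pool. The vertical axes differ between panels. Pdcd1lg2 is at 7.66 and 7.99 in WT and at 5.71 to 5.83 in the other 4 arrays, and no other panel shows a gap between genotypes of this size.

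By count, 1 of the 9 genes was called lower in IL4R KO than in WT at an adjusted p under 0.05, where 1.49% of all 18193 genes were called lower. None of the 9 was called higher, where 0.797% of all genes were, and 3 of the 9 were below an unadjusted p of 0.05 by limma (Pdcd1lg2, Icosl and Cd40). Between IL4R KO + SMP8-IL4R and WT, 1 of 9 was again called lower, against 1.2% of all genes, and none higher, against 0.297%, with 2 at an unadjusted p under 0.05 (Pdcd1lg2 and Cd40). Between IL4R KO + SMP8-IL4R and IL4R KO, limma called none of the 9, with 0.0275% of all genes called higher and 0% lower. The 1 gene of the 9 at an unadjusted p under 0.05 in that comparison was Cd274. Many of all 18193 genes were at an unadjusted limma p under 0.05. There were 3281 in IL4R KO against WT, 2814 in IL4R KO + SMP8-IL4R against WT and 1830 between the deficient genotypes. Unadjusted counts here and for the lists below are to be read beside these.

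Groups of 2 pools often fail to overlap, so separation alone is weak evidence about a gene. In IL4R KO against WT, 2 of the 9 genes had groups apart and higher and 4 apart and lower, where 24.3% and 24.6% of all genes did so. In IL4R KO + SMP8-IL4R against IL4R KO these counts were 2 higher and 1 lower, where the shares of all genes were 17.9% and 23.1%. In IL4R KO + SMP8-IL4R against WT they were 3 and 3, where the shares were 28.5% and 29.3%. The median difference over the 9 genes was -0.07 in IL4R KO against WT, -0.01 with the transgene against without it, and -0.05 in IL4R KO + SMP8-IL4R against WT. The same medians over all genes were 0.003, -0.018 and -0.005, so as a group the 9 lay close to all genes.

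**Figure D2:**
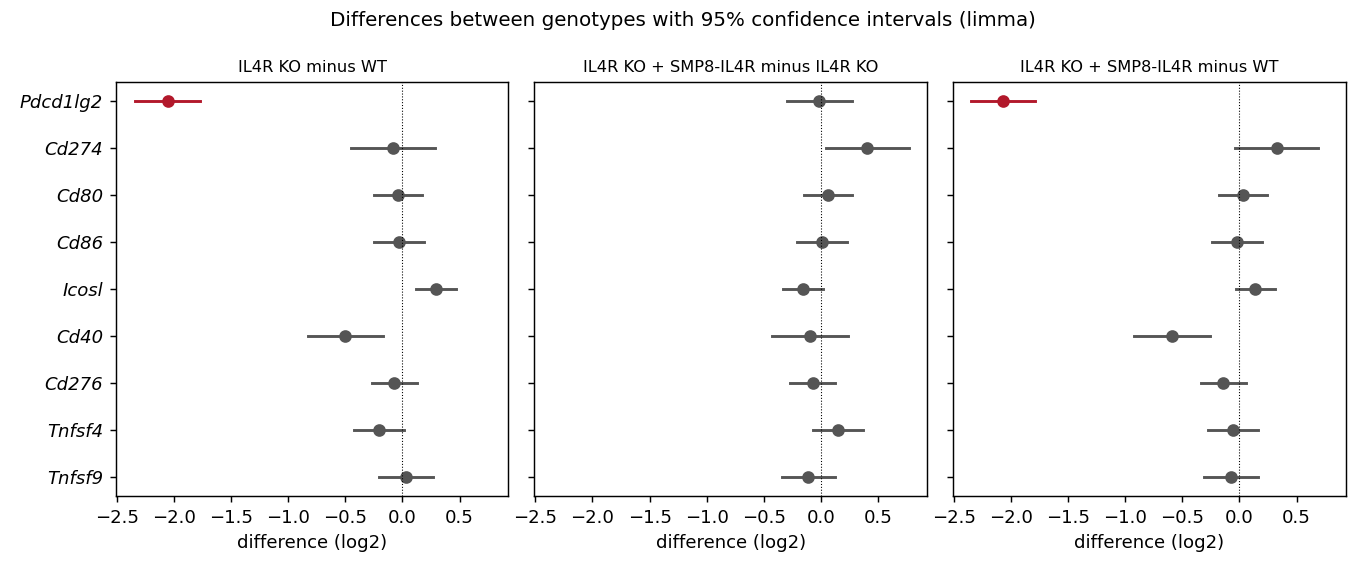
Difference between genotypes (log2, horizontal axis) for each gene, with its 95% interval from limma, which is not adjusted for the number of probe sets tested. Red marks an adjusted p under 0.05. Pdcd1lg2 stands at -2.05 and -2.07 in both comparisons with WT and at -0.01 between the 2 deficient genotypes, and the other 8 genes lie between -0.59 and 0.41.

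Cd274, which encodes PD-L1, read 8.55 and 8.06 in IL4R KO + SMP8-IL4R lungs, 7.87 and 7.92 in IL4R KO lungs, and 8.02 and 7.93 in WT lungs. Transgenic pool 1 was the highest of the 6 arrays, and transgenic pool 2 was close to WT pool 1. IL4R KO minus WT was -0.08 (95% interval -0.45 to 0.28, adjusted p = 0.837), an interval that does not reach the fall of Pdcd1lg2. The difference of IL4R KO + SMP8-IL4R from IL4R KO was 0.41 (SE 0.15, unadjusted p = 0.0340, limma adjusted p = 0.406), and from WT it was 0.32 (adjusted p = 0.375). Neither was called, and without each pool or under the other settings the first of these ran from 0.16 to 0.65.

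Genes of the interferon gamma pathway, for which PD-L1 is a known target, were read beside Cd274. Of 8 with a probe set, none was called in IL4R KO against WT (2 at an unadjusted p under 0.05), none between the deficient genotypes (3 unadjusted), and 1 was called higher in IL4R KO + SMP8-IL4R than in WT. That gene was Cxcl9, a chemokine that draws T cells, at 9.50 and 8.34 in IL4R KO + SMP8-IL4R lungs, 7.95 and 6.91 in IL4R KO lungs and 6.11 and 6.09 in WT lungs. Its difference from WT was 2.82 (SE 0.43, limma adjusted p = 0.0413), and the call was lost in 6 of 16 other settings. A dimmer probe set of Cxcl9 differed from WT by 0.55 (adjusted p = 0.0483), and the median over both by 1.69. Without 1 or the other transgenic pool it was 2.24 and 3.40, with adjusted p = 0.191 and 0.0618. Leaving out either WT pool also ended the call (2.83 and 2.81, adjusted p = 0.264 and 0.277).

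The other interferon-response genes differed in how far they followed transgenic pool 1. Cxcl10, a related chemokine, read 9.30 and 8.06 in IL4R KO + SMP8-IL4R lungs, 7.65 and 6.86 in IL4R KO lungs and 7.12 and 7.52 in WT lungs. Gbp2, an interferon-induced GTPase, read 11.12 and 10.84 in IL4R KO + SMP8-IL4R lungs, 10.44 and 10.80 in IL4R KO lungs and 10.61 and 10.75 in WT lungs. Cd274, Cxcl9, Cxcl10 and Gbp2 were all highest in transgenic pool 1. Irf1, a transcription factor induced by interferon gamma, was between 11.32 and 11.59 in all arrays and was highest in WT pool 1. Ifng itself was at 3.92 to 4.55, below the lower quartile of all values in every array. What transgenic pool 1 shares across these genes was not tested.

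Cd80 and Cd86, the ligands of CD28 and CTLA-4, were near the same level in every genotype. The brightest Cd80 probe set lay between 6.21 and 6.41 in all 6 arrays, and its 3 others had means below the lower quartile. Its IL4R KO minus WT difference was -0.04 (95% interval -0.25 to 0.17) and its transgenic minus IL4R KO difference 0.06 (95% interval -0.15 to 0.28). Cd86 lay between 6.71 and 6.92 at its brightest probe set and between 6.53 and 6.96 at the other. Its corresponding differences were -0.03 (95% interval -0.25 to 0.19) and 0.01 (95% interval -0.21 to 0.23). These intervals hold differences of up to about 0.28 units in either gene, which this design could not detect.

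Icosl, which encodes the ligand of ICOS, read 9.29 and 9.26 in IL4R KO + SMP8-IL4R lungs, 9.41 and 9.45 in IL4R KO lungs, and 9.11 and 9.16 in WT lungs. The 3 genotypes did not overlap, with IL4R KO the highest and WT the lowest. IL4R KO minus WT was 0.30 (SE 0.07, 95% interval 0.12 to 0.47, unadjusted p = 0.00518), which did not pass after adjustment over all probe sets (limma adjusted p = 0.129). It stayed between 0.16 and 0.34 in 16 other settings and was called in none of them, with a lowest adjusted p of 0.0547. IL4R KO + SMP8-IL4R minus IL4R KO was -0.16 (95% interval -0.33 to 0.02, adjusted p = 0.469), and minus WT it was 0.14 (adjusted p = 0.417). A second, dimmer Icosl probe set lay between 6.25 and 6.41 and differed by 0.03 between IL4R KO and WT, so the order of genotypes rests on 1 probe set.

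Cd276, which encodes the B7 family ligand B7-H3, lay between 7.10 and 7.26. It was 7.11 and 7.11 in IL4R KO + SMP8-IL4R lungs, 7.10 and 7.26 in IL4R KO, and 7.24 and 7.26 in WT. The transgenic pools lay below WT by 0.14 (95% interval -0.34 to 0.05, limma adjusted p = 0.463), and the IL4R KO pools spanned both other groups.

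Cd40 had the second largest difference from WT. Its brightest probe set read 8.44 and 8.43 in IL4R KO + SMP8-IL4R lungs, 8.31 and 8.75 in IL4R KO lungs, and 9.01 and 9.05 in WT lungs. Every deficient pool lay below both WT pools, and IL4R KO pool 2 was the highest of the deficient pools. IL4R KO minus WT was -0.50 (SE 0.14, 95% interval -0.83 to -0.17, unadjusted p = 0.00948, limma adjusted p = 0.163). IL4R KO + SMP8-IL4R minus WT was -0.59 (SE 0.14, 95% interval -0.92 to -0.26, unadjusted p = 0.00404, limma adjusted p = 0.134). The other probe sets of Cd40 gave -0.46 and -0.48 in the first comparison and -0.53 and -0.55 in the second, none of them called. Between the deficient genotypes Cd40 differed by -0.09 (95% interval -0.43 to 0.24, adjusted p = 0.817).

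Cd40 passed the test in some settings. Without IL4R KO pool 2, IL4R KO minus WT was -0.72 (limma adjusted p = 0.0139). IL4R KO + SMP8-IL4R minus WT was called at the same -0.59 (limma adjusted p = 0.0148) with only the 4 arrays compared. Leaving out either IL4R KO pool gives this same fit, so it is not a separate check. With the mean of the Y-linked genes as a covariate, IL4R KO minus WT was -0.68 (adjusted p = 0.0164). IL4R KO + SMP8-IL4R minus WT was then -0.60 (adjusted p = 0.0161). Only IL4R KO pool 2 had a low Y-linked mean, so this covariate acts much like leaving that pool out and is not a separate check. Without both arrays that held liver transcripts, which leaves IL4R KO pool 2 alone in its group, IL4R KO minus WT was -0.26 and was not called. IL4R KO pool 2 was the highest of the 6 arrays for B cell markers, cells that carry CD40. The mean of 8 B cell genes was 8.71 and 8.55 in IL4R KO + SMP8-IL4R lungs, 8.37 and 9.19 in IL4R KO and 8.49 and 8.57 in WT. The sum of their unlogged values was 3865 to 4378 in IL4R KO + SMP8-IL4R lungs, 3516 to 6295 in IL4R KO and 3660 to 3911 in WT. None of the 8 was called in any comparison (1, 0 and 1 at an unadjusted p under 0.05 in IL4R KO against WT, between the deficient genotypes, and in IL4R KO + SMP8-IL4R against WT), and none lay below the lower quartile in all arrays. The mean of 9 T cell genes was likewise highest in that pool, at 8.04 against 7.30 to 7.53 in the other 5 arrays. The part of B cell RNA in the Cd40 values was not tested.

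**Figure D3:**
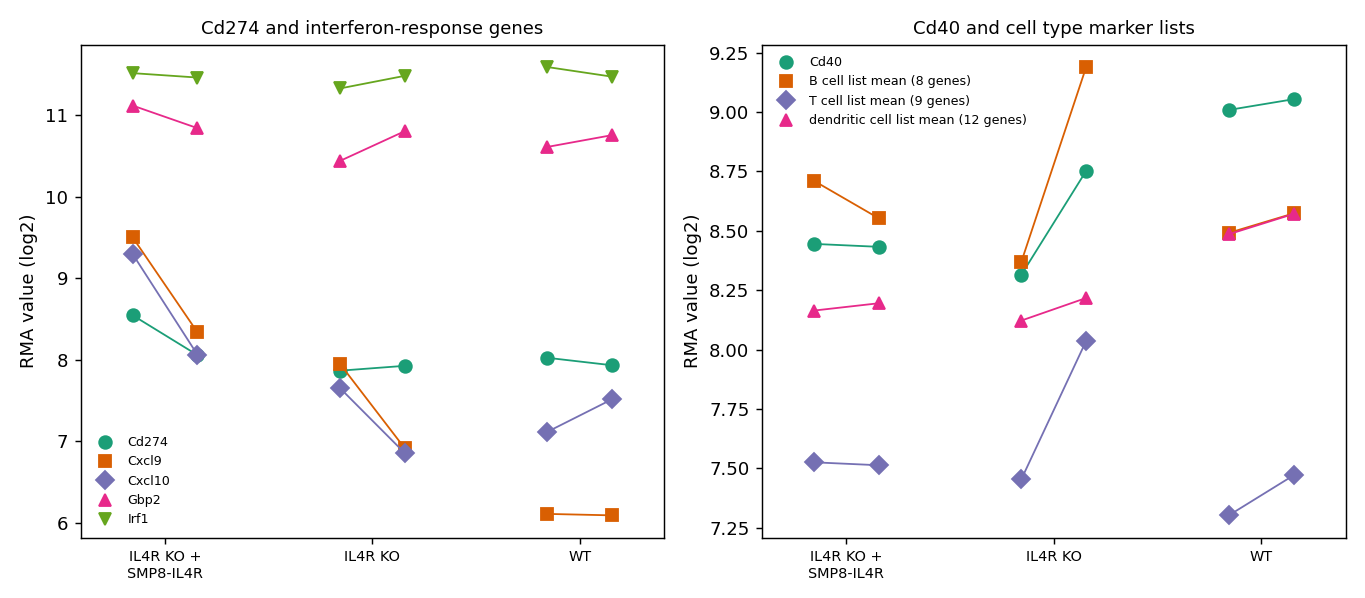
RMA value (log2, vertical axis) in the 6 arrays by genotype, with a line joining the 2 pools of each genotype. Left, Cd274 and 4 interferon-response genes, of which Cxcl9, Cxcl10 and Gbp2 share with Cd274 their highest value in transgenic pool 1. Right, Cd40 and the means of 3 marker lists, where Cd40 in IL4R KO is 8.31 and 8.75 and the B cell mean is 8.37 and 9.19.

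CD40 signals through TRAF adaptors to NF-kB, and 12 of 14 listed genes of that route had a probe set. Limma called none of the 12 in any comparison. At an unadjusted p under 0.05 there were 5 in IL4R KO against WT, 0 between the deficient genotypes and 4 in IL4R KO + SMP8-IL4R against WT. The corresponding counts over all 18193 genes were 3281, 1830 and 2814. Their median difference was -0.09 in IL4R KO against WT, -0.03 between the deficient genotypes and -0.08 in IL4R KO + SMP8-IL4R against WT.

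Tnfsf4 and Tnfsf9, the TNF family ligands, were dim and were not called. Tnfsf4 read 5.19 and 5.39 in IL4R KO + SMP8-IL4R lungs, 5.09 and 5.18 in IL4R KO lungs, and 5.37 and 5.32 in WT lungs, with a mean below the lower quartile of all values. IL4R KO minus WT was -0.21 (95% interval -0.43 to 0.01, limma adjusted p = 0.335), and the transgenic pools overlapped WT. Tnfsf9 lay between 6.08 and 6.34 in all arrays, with IL4R KO minus WT at 0.03 (95% interval -0.20 to 0.27). RMA draws dim signals toward a floor, so differences of Tnfsf4 may be understated.

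The partners of these ligands on T cells were 7 genes, all with a probe set. In IL4R KO against WT 1 was called lower and none higher, between the deficient genotypes none was called (0 at an unadjusted p under 0.05), and in IL4R KO + SMP8-IL4R against WT 1 was called lower and 1 higher. Their median differences in these 3 comparisons were 0.17, 0.07 and 0.08. Tnfrsf9, which encodes 4-1BB, the receptor of Tnfsf9, read 8.09 and 7.75 in IL4R KO + SMP8-IL4R lungs, 7.80 and 7.80 in IL4R KO lungs, and 9.71 and 9.80 in WT lungs. As for Pdcd1lg2, the deficient genotypes overlapped each other and stood apart from WT. The fall was -1.95 in IL4R KO (SE 0.12, limma adjusted p = 0.00103) and -1.84 in IL4R KO + SMP8-IL4R (SE 0.12, limma adjusted p = 0.00131), and it kept its call in all 16 other settings. Another Tnfrsf9 probe set differed by -3.24 and -3.16 (adjusted p = 0.00887 and 0.0115), and the remaining one by 0.12 and 0.05, which was not called. Its ligand Tnfsf9 did not move with it.

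Icos, the receptor of ICOSL, read 7.29 and 7.32 in IL4R KO + SMP8-IL4R lungs, 7.25 and 7.27 in IL4R KO lungs, and 6.88 and 6.85 in WT lungs. The transgenic difference from WT was 0.44 (SE 0.07, limma adjusted p = 0.0498) and was lost in 10 of 16 other settings, while that of IL4R KO was 0.39 (adjusted p = 0.0573). The other Icos probe sets differed from WT by 0.06 and 0.27 in IL4R KO + SMP8-IL4R lungs, and neither was called. Leaving out any 1 of the transgenic or WT pools ended the call, with differences of 0.42 to 0.46 and adjusted p of 0.290 to 0.322.

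Ctla4, the inhibitory receptor of CD80 and CD86, read 6.21 and 6.03 in IL4R KO + SMP8-IL4R lungs, 6.34 and 5.71 in IL4R KO lungs and 5.59 and 5.48 in WT lungs. Every deficient pool lay above WT, by 0.59 in IL4R KO + SMP8-IL4R (limma adjusted p = 0.235) and 0.49 in IL4R KO (adjusted p = 0.287). The first was called with only the 4 arrays compared (0.59, limma adjusted p = 0.0358), which is the same fit as without either IL4R KO pool. The second was 0.80 without IL4R KO pool 2, which leaves 1 pool in that group. Cd28, the costimulatory receptor of CD80 and CD86, was 6.65 and 6.76 in IL4R KO + SMP8-IL4R lungs, 6.80 and 6.90 in IL4R KO lungs and 6.51 and 6.53 in WT lungs. Its groups did not overlap and IL4R KO lay above WT by 0.33, which was not called (limma adjusted p = 0.125). Pdcd1, which encodes the receptor of both PD-1 ligands, lay between 4.26 and 4.66, below the lower quartile in every array. Cd40lg lay between 5.14 and 5.55 and Tnfrsf4, which encodes OX40, between 8.29 and 8.51, and neither was called. In whole lung RNA, fewer cells of a type and less RNA per cell cannot be told apart.

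Among 23 further genes of T cell costimulation and inhibition, 1 was called higher and none lower in both comparisons with WT, and none between the deficient genotypes (3 at an unadjusted p under 0.05). This gene was Btla, an inhibitory receptor of B and T cells, at 9.09 and 9.32 in IL4R KO + SMP8-IL4R lungs, 9.06 and 9.26 in IL4R KO lungs and 8.12 and 8.27 in WT lungs. The difference was 0.96 in IL4R KO (SE 0.12, limma adjusted p = 0.0149) and 1.01 in IL4R KO + SMP8-IL4R (SE 0.12, limma adjusted p = 0.0143). Leaving out either WT pool ended both calls, with differences of 0.89 and 1.04 in IL4R KO (adjusted p = 0.162 and 0.0986) and of 0.94 and 1.08 in IL4R KO + SMP8-IL4R (adjusted p = 0.152 and 0.109). The transgenic call was also lost without either transgenic pool (1.13 and 0.89, adjusted p = 0.0602 and 0.123). Btla was highest in transgenic pool 2 (9.32) and next in IL4R KO pool 2 (9.26), the pool in which B cell markers were highest. The part of B cell RNA in the Btla values was not tested.

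The receptor pathway list, of receptor chains, kinases, Stat6, Irs2 and feedback inhibitors, was read at 12 of 13 genes. In IL4R KO against WT 3 were called lower and none higher, between the deficient genotypes none (3 at an unadjusted p under 0.05), and in IL4R KO + SMP8-IL4R against WT 2 were called lower. Il13ra2, a decoy receptor of IL-13, differed by -1.30 in IL4R KO (adjusted p = 0.0129) and by -1.29 in IL4R KO + SMP8-IL4R (adjusted p = 0.0149). The feedback inhibitor Cish differed by -0.90 in IL4R KO (limma adjusted p = 0.0269) and by -0.95 in IL4R KO + SMP8-IL4R (adjusted p = 0.0277). Socs1, another feedback inhibitor, differed by -0.74 in IL4R KO (adjusted p = 0.0154), while its difference of -0.49 in IL4R KO + SMP8-IL4R was not called (adjusted p = 0.0724). All of these calls were lost without either WT pool, at adjusted p of 0.0754 to 0.224. The Pdcd1lg2 calls were not.

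Markers of macrophages and dendritic cells, which are known to carry PD-L2, were read beside Pdcd1lg2. Of 11 markers of alternatively activated macrophages, 7 were called lower in IL4R KO than in WT and none higher, with a median difference of -1.35. In IL4R KO + SMP8-IL4R against WT 6 were called lower, with a median of -1.50. The lectin gene Mgl2 differed by -2.11 in IL4R KO and -1.77 in IL4R KO + SMP8-IL4R (limma adjusted p = 0.000794 and 0.00155). The chemokine gene Ccl17 differed by -2.96 and -2.70 (limma adjusted p = 0.000218 and 0.000403). The sum of the unlogged values of these 11 genes was 20092 to 24641 in IL4R KO + SMP8-IL4R lungs, 16451 to 20374 in IL4R KO and 56884 to 57822 in WT. Bright genes weigh most in such a sum, and the markers Retnla (14.59 and 14.60) and Chil3 (14.23 and 14.26) were bright in WT. Retnla was not called in IL4R KO + SMP8-IL4R against WT (-1.54, limma adjusted p = 0.0937). None of the 11 lay below the lower quartile in all arrays. Without either WT pool, 3 of the 11 were called lower in IL4R KO and 2 in IL4R KO + SMP8-IL4R. The calls lost in IL4R KO without WT pool 1 were Retnla, Mrc1, Ccl24 and Egr2, at adjusted p of 0.201, 0.168, 0.0919 and 0.207.

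Of 12 dendritic cell markers, 4 were called lower and 1 higher in IL4R KO than in WT, and 5 lower and 1 higher in IL4R KO + SMP8-IL4R. Batf3, a transcription factor of cross-presenting dendritic cells, differed by -1.78 in IL4R KO and -1.71 in IL4R KO + SMP8-IL4R (limma adjusted p = 0.00230 and 0.00302). Itgax, which encodes CD11c, differed by -1.64 in IL4R KO and -1.70 in IL4R KO + SMP8-IL4R. Irf4, a transcription factor of dendritic cells and macrophages (-0.94 in IL4R KO), and the chemokine Ccl22 (-1.01 in IL4R KO) were also called lower in both genotypes, and Itgae, which encodes the integrin CD103, was called higher (0.57 in IL4R KO). The other probe set of Irf4 gave -0.45 in IL4R KO and -0.51 in IL4R KO + SMP8-IL4R (adjusted p = 0.217 and 0.195). That of Itgae gave 0.44 and 0.34 (adjusted p = 0.0956 and 0.184), so neither was called. Leaving out 1 WT pool ended the calls of Irf4, Ccl22 and Itgae (adjusted p from 0.0634 to 0.236), that of Itgax without WT pool 2 (-1.55 in IL4R KO and -1.60 in IL4R KO + SMP8-IL4R), and that of Batf3 in IL4R KO + SMP8-IL4R without WT pool 1 (-1.64). Without any 1 of the WT or transgenic pools, 1 or 2 of the 12 were called in IL4R KO + SMP8-IL4R against WT, all lower. Flt3 and Zbtb46, also on this list, were not called. The list's median was -0.11 in IL4R KO against WT and 0.06 in IL4R KO + SMP8-IL4R against WT. Which cells of the lung gave these transcripts was not tested. The summed values were 5163 to 5248 in IL4R KO + SMP8-IL4R lungs, 4943 to 5134 in IL4R KO and 7250 to 7794 in WT. Sums weigh bright genes most, and Itgax, at 11.61 and 11.80, was the brightest of the 12 in WT. Irf8, another transcription factor of the list, lay above WT by 0.49 in IL4R KO and 0.52 in IL4R KO + SMP8-IL4R. It was not called (limma adjusted p = 0.0921 and 0.0939). Of 11 general macrophage markers, 1 of which (Mrc1) is also in the list of alternatively activated cells, 2 were called higher (Fcgr1 and Marco) and 1 lower (Mrc1) in each comparison with WT. In IL4R KO against WT, all 3 calls were lost without either WT pool. In IL4R KO + SMP8-IL4R against WT, all 3 were lost without WT pool 1 and Marco alone was called without WT pool 2. The Marco call in IL4R KO (0.50, adjusted p = 0.0469) held in 2 of 14 other settings, and the other probe sets of Fcgr1 and Marco differed from WT by 0.04 to 0.20 and were not called. The sums of the 11 were 28840 to 30810 in IL4R KO + SMP8-IL4R lungs, 30108 to 31166 in IL4R KO and 29195 to 29750 in WT. That weighting toward bright genes holds for these sums too, and Lyz2, at 13.99 and 14.01 in WT, was the brightest of the 11. The median difference of the 11 was -0.12 in IL4R KO against WT and -0.29 in IL4R KO + SMP8-IL4R against WT. At an unadjusted limma p under 0.05 were 8 and 9 of the 11, beside 3281 and 2814 of all 18193 genes. Groups lay apart and lower for 6 and 6 (24.6% and 29.3% of all genes), and apart and higher for 5 and 4 (24.3% and 28.5%). The part of cell numbers in the Pdcd1lg2 difference was not tested.

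**Figure D4:**
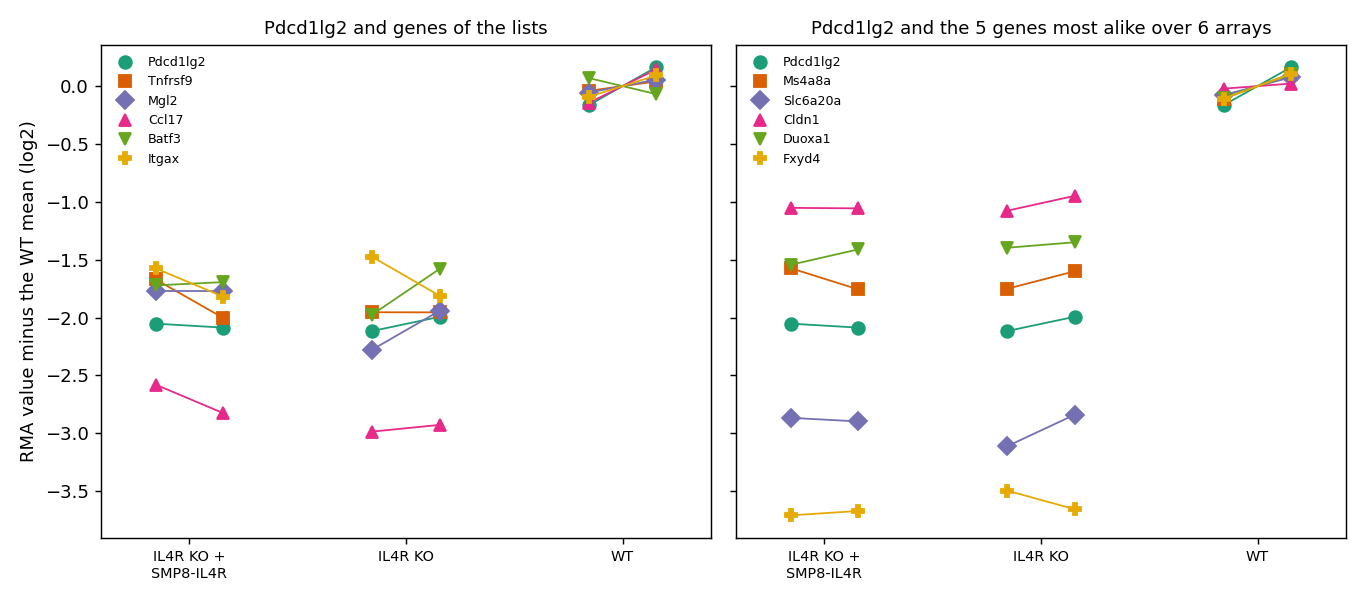
RMA value minus the WT mean (log2, vertical axis) in the 6 arrays by genotype, with a line joining the 2 pools of each genotype. Left, Pdcd1lg2 with Tnfrsf9, 2 markers of alternatively activated macrophages and 2 dendritic cell markers. Right, Pdcd1lg2 with the 5 genes of highest correlation to it. Every gene shown is lower in all 4 deficient arrays than in both WT arrays, with group means of 5.76 and 5.77 against 7.83 for Pdcd1lg2.

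The 5 genes whose pattern over the 6 arrays was most like that of Pdcd1lg2 were sought among 378 genes with a range of at least 1 log2 unit and a mean above the median of all values. They were Ms4a8a, of the MS4A family of membrane proteins (Pearson r = 0.998), Slc6a20a, an amino acid transporter (r = 0.997), Cldn1, a tight junction protein (r = 0.996), Duoxa1, the maturation factor of dual oxidase 1 (r = 0.996), and Fxyd4, a regulator of the sodium pump (r = 0.996). The gap between WT and the other 4 arrays sets these values, and the arrays are the same for all genes, so they are descriptions without a test. The IL4R KO minus WT differences were -1.68 for Ms4a8a, -2.98 for Slc6a20a, -1.01 for Cldn1, -1.37 for Duoxa1 and -3.58 for Fxyd4. Cldn1 was not called when the median of its probe sets was used (-0.30 in IL4R KO, limma adjusted p = 0.169). Cldn1, Duoxa1 and Fxyd4 are genes known from epithelium, and none of 7 epithelial markers was called in any comparison (0, 1 and 0 at an unadjusted p under 0.05 in IL4R KO against WT, between the deficient genotypes, and in IL4R KO + SMP8-IL4R against WT).

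Other listed genes called lower in IL4R KO than in WT were read for the same STAT6-type letters as Pdcd1lg2. There were 23 such genes beside Pdcd1lg2, drawn from all lists, among them marker lists of smooth muscle, fibroblasts and endothelium. Of these, 16 had a promoter in the RefSeq table and 3 of the 16 held TTCNNNNGAA, beside 6.95% of all promoters. The first count is of genes, some with several promoters, and the share is of promoters. The matches of Ccl17 and Retnla are shown with 10 bases on each side, 5′ to 3′ on the plus strand of GRCm38.p6, to set beside that of Pdcd1lg2. These stretches, with the match in capitals, lie at chr19:29410827-29410856 for Pdcd1lg2, chr8:94810289-94810318 for Ccl17 and chr16:48842454-48842483 for Retnla.
Pdcd1lg2: catgctccagTTCCTCAGAAaccattctgg
Ccl17: cgagtgaccaTTCTCTGGAAagccacaaac
Retnla: agaatcataaTTCACAAGAAattgctaaac
The first base of the match stood 82 bases before the start in Pdcd1lg2, 154 in Ccl17 and 145 in Retnla. Tnfrsf9, whose values ran closest to those of Pdcd1lg2 among the T cell partners, had 2 promoters in the table and neither held the motif. Retnla, a secreted protein of alternatively activated macrophages, differed from WT by -2.26 in IL4R KO (limma adjusted p = 0.0241), a call that ended without either WT pool (-2.26 and -2.25, adjusted p = 0.201 and 0.186).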

How the data were processed

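Per the submitters' processing notes, the authors made the deposited log2 values with RMA, a method of background correction, quantile normalization and summary over the probes of a set. Its version is not given in the sources used here, and RMA draws dim signals toward a floor. Of 45101 probe sets in all, 64 array controls were left out. The platform annotation named 1 gene for 34945 of those tested, several for 932 and none for 9160.

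The comparisons used limma 3.58.1 (R 4.3.3) on all 45037 probe sets without a filter on dim ones, with all 6 arrays sharing 1 estimate of the spread (3 residual and 3.72 prior degrees of freedom). P-values are two-sided and were adjusted by Benjamini-Hochberg over all probe sets, and a gene was called at an adjusted p under 0.05. Of the 9 genes, 5 would pass a filter on values above the median in at least 2 arrays, Pdcd1lg2 through its 2 WT arrays alone. The fit was tested on simulated data. The members, gene lists and naming rules were chosen with earlier results of these data known. Called genes of the pathway and costimulation lists were named, as were all partners on T cells, and of the marker lists some called members. Il4ra, Cxcl10, Gbp2, Irf1, Ifng, Flt3, Zbtb46, Irf8 and Lyz2 were named beyond this rule, after their values were seen. The number of arrays limits the precision, and no depth exists for arrays. Alternatives covered the filter, the unit tested, the variance model, scaling, the samples fitted, a replicate block, each pool left out, and covariates for Y-linked and hepatocyte genes. Promoters came from RefSeq (GRCm38.p6) and were matched by symbol. A further promoter match is not reported here.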

Additional observations from a re-analysis of the deposited data

How the results depend on the processing

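Across 408 recomputed values of the 9 genes, some from settings that give the same fit, none changed direction once called and none lost its call. A call was gained by 6, all Cd40, and those with only the 4 arrays or without either IL4R KO pool are the same fit. The Y-linked covariate mainly sets IL4R KO pool 2 apart, so its calls are close to those without that pool. Another 13 were uncalled values that changed sign and moved by at least the SE of the main fit. Smaller sign changes were counted as unchanged. The count of the 9 genes called against WT was 2 in IL4R KO with the Y-linked covariate, and 2 in IL4R KO + SMP8-IL4R with that covariate or with only the 4 arrays compared. Without each pool in turn it was 1 to 2 in both. The number of all probe sets called moved more. In IL4R KO against WT it was 710, and 1075 with an intensity trend, 322 with only the 4 arrays, 1373 with the Y-linked covariate and 127 to 1401 without each pool. In IL4R KO + SMP8-IL4R against WT it was 470, and 732, 1064 and 1042 under those settings and 102 to 1064 without each pool. In IL4R KO + SMP8-IL4R against IL4R KO it was 7. There it became 12 with 1 bright probe set per gene, 31 with a trend, 0 with only the 4 arrays, 13 without both arrays that hold liver transcripts, 74 with the Y-linked covariate, 0 with the hepatocyte covariate and 0 to 96 without each pool. The cause was not tested.

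Same-numbered pools share only a number: the differences between pools correlated by 0.09 between IL4R KO + SMP8-IL4R and IL4R KO, -0.06 between IL4R KO + SMP8-IL4R and WT and -0.48 between IL4R KO and WT. With the replicate block, 610, 16 and 397 probe sets were called in IL4R KO against WT, between the deficient genotypes and in IL4R KO + SMP8-IL4R against WT, and the calls of the 9 genes did not change. Where a setting leaves 1 pool in a group, that pool is assumed to vary like the others. With 2 pools per genotype, small differences of dim genes such as Tnfsf4 and Pdcd1 were not detectable.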
